A study of Mus musculus with 12 samples.

Results

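Ion transport genes other than the BK channel gene itself were described here in mice that lack the BK channel. The members were the genes of either deposited list whose Gene Ontology annotation held the whole term ion transport and did not hold multicellular organism development, less 15 genes set aside by name. Of 1017 genes listed for hippocampus, cortex or both, 54 held the term, and 41 remained as members. Of 652 genes listed for hippocampus 26 were members, of 561 listed for cortex 18 were members, and 3 members stood in both lists. The genes set aside by name accounted for 13 of the 54, and the only gene that held both terms, Ryr1, was among them.

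The study used BK KO mice (kcnma1-/-) as a loss-of-function model of epilepsy and sequenced poly-A RNA from 12 libraries. WT hippocampus, BK KO hippocampus, WT cortex and BK KO cortex had 3 libraries each. All groups were adult C57BL/6 mice, and the BK KO animals carried a frameshift deletion in exon 4 of Kcnma1, made with CRISPR/Cas9, with WT littermates from heterozygous breeding as controls. Both tissues were taken from the same animals, so they are not independent samples of each genotype, and the labels do not say which libraries share a mouse. Each list held only genes that the authors had kept for a difference between BK KO and WT in that tissue, so a gene absent from a list has no value here for that tissue.

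Ion channels let ions flow passively through a gated pore, whereas pumps and solute carriers move them at the cost of ATP or of another ion's gradient. In hippocampal and cortical neurons, potassium channels set the resting potential and repolarize the membrane after a spike, and the BK channel does so when depolarization and intracellular calcium coincide. Carriers and pumps rebuild the gradients that the channels run down, in neurons, glia and the cells of the blood vessels alike.

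Values are FPKM, fragments per kilobase of transcript scaled to the library total, a unit worked out from the values since the sources used here do not name it. Differences between BK KO and WT are on the scale of log2(FPKM + 1), and each is given ± its standard error from limma. This scale understates the change of genes at a few FPKM, and most of all under about 1 FPKM. A gene was past the threshold where limma's unadjusted p was under 0.05 and the difference was beyond 0.58 in either direction. The study names the same limits for its lists, on its own fold changes and p. A member not past the threshold here had thus met those limits in the study. The members had been listed for this same contrast, so these differences describe the listed genes and are no independent test of them. Sequencing depth is unknown, and in bulk tissue fewer cells of a type cannot be told apart from less RNA per cell.

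Kcnma1 (Gene ID 16531), which encodes the BK channel's pore-forming subunit, served as the check of the labels. In hippocampus it was at 11.3, 10.6 and 9.67 FPKM in WT against 2.54, 2.82 and 2.81 FPKM in BK KO. In cortex it was at 12, 9.82 and 11.8 FPKM in WT against 3.09, 2.97 and 2.76 FPKM in BK KO. Every BK KO library lay far below every WT library of its tissue, and the difference was -1.63 ± 0.10 in hippocampus and -1.63 ± 0.10 in cortex. Transcript from the locus was still counted in every BK KO library. The tissue labels could not be checked in the same way, since the lists hold only selected genes, with 0 of 8 dentate granule cell markers listed for hippocampus and 1 for cortex.

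In hippocampus, 16 of the 26 members had higher values in BK KO and 10 had lower values, beside 273 and 379 of the 652 listed genes. Past the threshold were 15 members, beside 42.6% of all genes listed for hippocampus. Of these, 10 were higher in BK KO, beside 20.7% of the list, and 5 were lower, beside 21.9%. The WT and BK KO libraries did not overlap for 21 of the 26 members, beside 79.9% of the list. Since the list was drawn from this contrast, nothing is read from these counts. Without WT replicate 1 there were 10 members past the threshold, 5 of them higher, and without BK KO replicate 2 there were 9, with 4 higher. The median difference was 0.23 over the members and -0.27 over all listed genes, and the median size of the difference, whatever its sign, was 0.62 and 0.54. By level, the members had a median of 2.10 FPKM against 2.11 FPKM over the list, and 8 of them averaged under 1 FPKM.

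**Figure D1:**
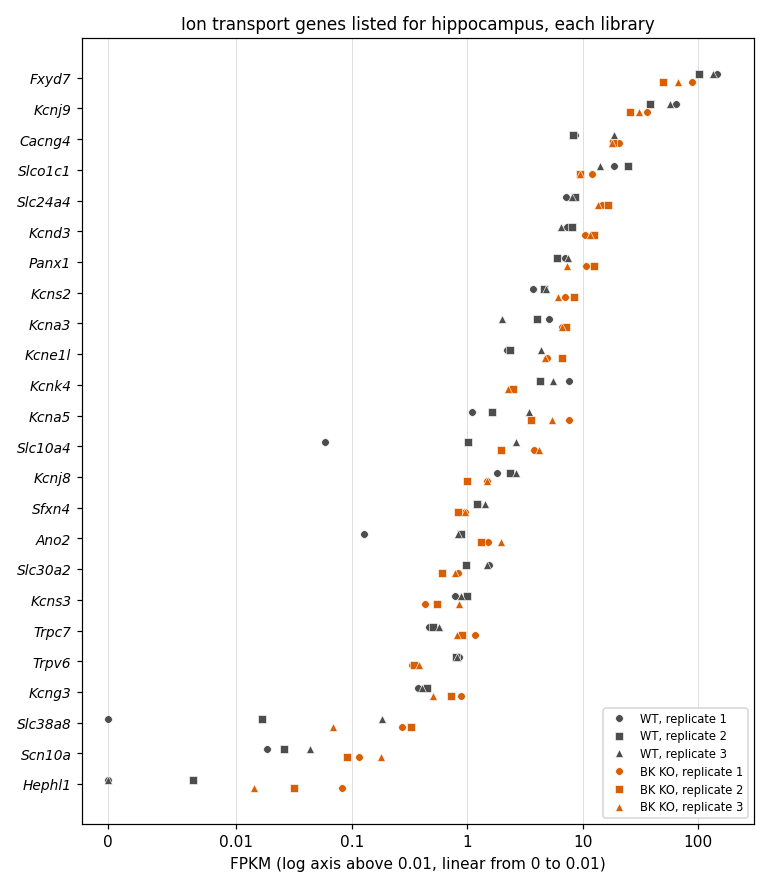
FPKM of 24 of the 26 members listed for hippocampus in each of the 6 libraries (horizontal axis logarithmic above 0.01 FPKM), ordered by mean level, with WT in grey and BK KO in orange and the replicate number as the symbol. Fxyd7 and Kcnj9 were the most abundant, and Hephl1, Scn10a and Slc38a8 had the lowest means.

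Potassium channel subunits made up 11 of the 26 hippocampal members, 6 with higher values in BK KO and 5 with lower ones. Those with higher values were all subunits of the voltage-gated family or its accessory proteins, namely Kcna3, Kcna5, Kcnd3, Kcns2, Kcng3 and Kcne1l. Those with lower values included the leak channel Kcnk4, the inward rectifiers Kcnj8 and Kcnj9, and the silent subunit Kcns3. Among all listed genes with symbols of potassium or cyclic nucleotide gated channels, Kcnma1, Hcn4 and Kcnt2 included, 7 of 14 were higher in BK KO and 7 were lower.

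Kcna3 and Kcna5 encode Shaker-type delayed rectifier subunits. Kcna5 was at 1.1, 1.63 and 3.43 FPKM in WT against 7.56, 3.54 and 5.41 FPKM in BK KO, a difference of 1.12 ± 0.33. The highest WT library, replicate 3, came just under the lowest BK KO library, replicate 2, so the groups did not overlap but nearly met. Kcna3 was at 5.10, 4.0 and 2.00 FPKM in WT against 6.58, 7.21 and 6.64 FPKM in BK KO. Here the BK KO libraries lay close together and the WT libraries spread 2.56-fold, with replicate 3 the lowest, and the difference was 0.79 ± 0.25. Kcna3 was not past the threshold without WT replicate 3 (0.50) or BK KO replicate 2 (0.76), whereas Kcna5 was past it whichever library was left out. WT replicate 3 thus lay nearest to BK KO for Kcna5 and farthest from it for Kcna3.

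Kcnd3 encodes a Shal-type subunit of the fast inactivating A-type current. It was at 7.31, 8.0 and 6.47 FPKM in WT against 10.4, 12.4 and 11.6 FPKM in BK KO, with a difference of 0.60 ± 0.12 that lay just past the threshold. The groups were well apart, with every BK KO library above every WT library and little spread in either. Kcns2 encodes an electrically silent subunit that forms no channel alone and modifies the Kcnb delayed rectifiers. It was at 3.72, 4.57 and 4.85 FPKM in WT against 7.02, 8.34 and 6.08 FPKM in BK KO, a difference of 0.60 ± 0.14, again without overlap. Kcnd3 came short of the threshold without WT replicate 3 (0.53) or BK KO replicate 2 (0.54), and Kcns2 without WT replicate 1 (0.50) or BK KO replicate 2 (0.49).

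Kcne1l, also named Kcne5, encodes a single-pass accessory subunit of voltage-gated potassium channels. It was at 2.20, 2.34 and 4.31 FPKM in WT against 4.92, 6.65 and 4.74 FPKM in BK KO, a difference of 0.73 ± 0.22. The groups did not overlap, although WT replicate 3 stood well above the other WT libraries. Without WT replicate 2 (0.63) or BK KO replicate 2 (0.60) the gene was not past the threshold. The deposited description calls the gene a pseudogene, whereas RefSeq lists it as protein-coding. Another silent subunit, Kcng3, was lower in level, from 0.375 to 0.445 FPKM in WT and from 0.505 to 0.883 FPKM in BK KO.

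Kcnk4 encodes a tandem-pore-domain leak channel that opens with membrane stretch and helps to hold the resting potential. Its transcript was at 7.63, 4.29 and 5.57 FPKM in WT against 2.46, 2.49 and 2.24 FPKM in BK KO, a ratio of means of 0.411. The BK KO libraries lay within a narrow band below all WT libraries, among which replicate 1 was the highest. The difference of -0.98 ± 0.18 was past the threshold whichever library was left out. RefSeq also gives the names Catsperz and Tex40 to Kcnk4's locus, and how fragments of overlapping transcripts were assigned is not given in the sources used here.

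Kcnj9 encodes a subunit of the G protein gated inward rectifier, through which inhibitory receptors hyperpolarize neurons. At 64.2, 38.0 and 57.3 FPKM in WT against 35.6, 25.7 and 30.8 FPKM in BK KO, it was the most abundant potassium channel subunit among the members. All BK KO libraries were below all WT libraries, though BK KO replicate 1 and WT replicate 2 were close, and the difference was -0.75 ± 0.22. Kcns3, a silent subunit like Kcns2 but with lower values in BK KO, ranged from 0.791 to 0.986 FPKM in WT and from 0.435 to 0.854 FPKM in BK KO, so that its groups overlapped.

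Kcnj8 encodes the pore of an ATP-sensitive potassium channel that is known from pericytes and vascular smooth muscle, where Abcc9 encodes its regulatory partner. Kcnj8 was at 1.83, 2.37 and 2.65 FPKM in WT against 1.48, 1.0 and 1.48 FPKM in BK KO, lower in every BK KO library, with a difference of -0.50 ± 0.15 that was past the threshold only without WT replicate 1 (-0.60) or with a smaller pseudocount, at -0.61 with 0.5 FPKM. Of 10 pericyte and smooth muscle markers, 5 were listed for hippocampus (Rgs5, Abcc9, Kcnj8, Vtn and Atp13a5). Beside 379 of 652 listed genes that were lower and 79.9% without overlap, all 5 were lower in BK KO with no overlap. Their summed level was 65.2, 61.3 and 62.9 FPKM in WT and 46.3, 37.3 and 39.9 FPKM in BK KO. Kcnj8 itself was a small part of this sum, and Vtn was the most abundant, with a mean of 35.1 FPKM, and none of the 5 was at 0 in any library. Abcc9 itself was at 1.23, 1.13 and 0.971 FPKM in WT against 0.748, 0.693 and 0.796 FPKM in BK KO. The part of the other markers in the lower Kcnj8 was not tested.

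Fxyd7 had the highest level of all 41 members. It encodes a small brain-enriched regulator that binds the sodium-potassium pump and lowers its affinity for external potassium. Fxyd7 was at 144, 101 and 133 FPKM in WT against 88.9, 49.3 and 66.2 FPKM in BK KO. The WT mean was 126 ± 22.5 FPKM (SD, n = 3) and the BK KO mean 68.1 ± 19.9 FPKM (SD, n = 3), and the groups did not overlap. The difference of -0.90 ± 0.24 was past the threshold whichever library was left out.

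Scn10a, a voltage-gated sodium channel of sensory neurons, was low in hippocampus, from 0.0186 to 0.0439 FPKM in WT and from 0.0911 to 0.178 FPKM in BK KO. Cacng4 encodes an auxiliary protein of AMPA-type glutamate receptors that is also classed as a calcium channel gamma subunit. It was at 8.49, 8.19 and 18.6 FPKM in WT against 20.4, 18.1 and 17.8 FPKM in BK KO. WT replicate 3 lay among the BK KO libraries, so the groups overlapped, whereas the other WT libraries were well below every BK KO library. The difference of 0.73 ± 0.29 was 1.08 without WT replicate 3 and was not past the threshold without WT replicate 1 (0.56), WT replicate 2 (0.54), BK KO replicate 1 (0.67), BK KO replicate 2 (0.75) or BK KO replicate 3 (0.76). Trpc7, a receptor-operated cation channel, ranged from 0.464 to 0.567 FPKM in WT and from 0.815 to 1.17 FPKM in BK KO. The calcium-selective channel Trpv6 was lower, with 0.806 to 0.842 FPKM in WT and 0.330 to 0.381 FPKM in BK KO, and its libraries agreed closely within each group. Trpv6 was past the threshold only with smaller pseudocounts, at -0.63 with 0.5 FPKM. Trpc7 (0.79) and Scn10a (0.80) were past it only with a pseudocount of 0.1 FPKM.

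Ano2, a calcium-activated chloride channel, was at 0.128, 0.885 and 0.835 FPKM in WT against 1.51, 1.32 and 1.97 FPKM in BK KO. The WT libraries were all below the BK KO libraries, with replicate 1 the lowest. The difference was 0.72 ± 0.22, and the threshold was not reached without WT replicate 1 (0.48) or BK KO replicate 3 (0.62). Panx1, the subunit of a large-pore channel that releases ATP, was at 7.02, 6.03 and 7.49 FPKM in WT against 10.7, 12.6 and 7.36 FPKM in BK KO. BK KO replicate 3 lay among the WT libraries, and the difference of 0.49 ± 0.19 was past the threshold only without that library, at 0.69.

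Slc10a4 encodes a vesicular carrier of cholinergic and monoaminergic neurons. It was at 0.0585, 1.01 and 2.63 FPKM in WT against 3.76, 1.98 and 4.19 FPKM in BK KO. WT replicate 3 was above BK KO replicate 2, so the groups overlapped, and WT replicate 1 was far below the rest. The difference of 1.08 ± 0.44 was 1.52 without WT replicate 3 and missed the threshold without WT replicate 1 (0.63), WT replicate 2 (1.1), BK KO replicate 1 (0.99) or BK KO replicate 3 (0.93). Slc38a8 and Slc30a2, an amino acid and a zinc transporter, and Hephl1, a copper-dependent ferroxidase, were low. Slc30a2 ranged from 0.973 to 1.55 FPKM in WT and from 0.607 to 0.830 FPKM in BK KO, and Slc38a8 and Hephl1 were listed at 0 in 1 and 2 WT libraries.

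The WT libraries did not stand in the same order for all genes. WT replicate 3 was the WT library nearest to the BK KO side for 9 of the 16 members with higher values in BK KO, whereas among the 273 such genes in the whole list WT replicate 2 was most often the nearest, for 119, and WT replicate 3 was for 81. For the 10 members with lower values, WT replicate 2 was the nearest for 7, and for 168 of 379 in the list. Genes known from regions around the hippocampus varied as well. Tac1, the 1 striatal marker of 9 that was listed, was at 3.97, 3.29 and 26.6 FPKM in WT against 36.4, 18.9 and 28.2 FPKM in BK KO, with WT replicate 3 again among the BK KO libraries. Trh, the 1 of 11 thalamic and hypothalamic markers listed, was at 0.345, 3.43 and 2.09 FPKM in WT against 11.6, 4.09 and 7.33 FPKM in BK KO. Gh, the 1 of 9 anterior pituitary markers listed, was at 0 in every WT library and at 0.120, 0.184 and 57.5 FPKM in BK KO. Their part in the member values was not tested.

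**Figure D2:**
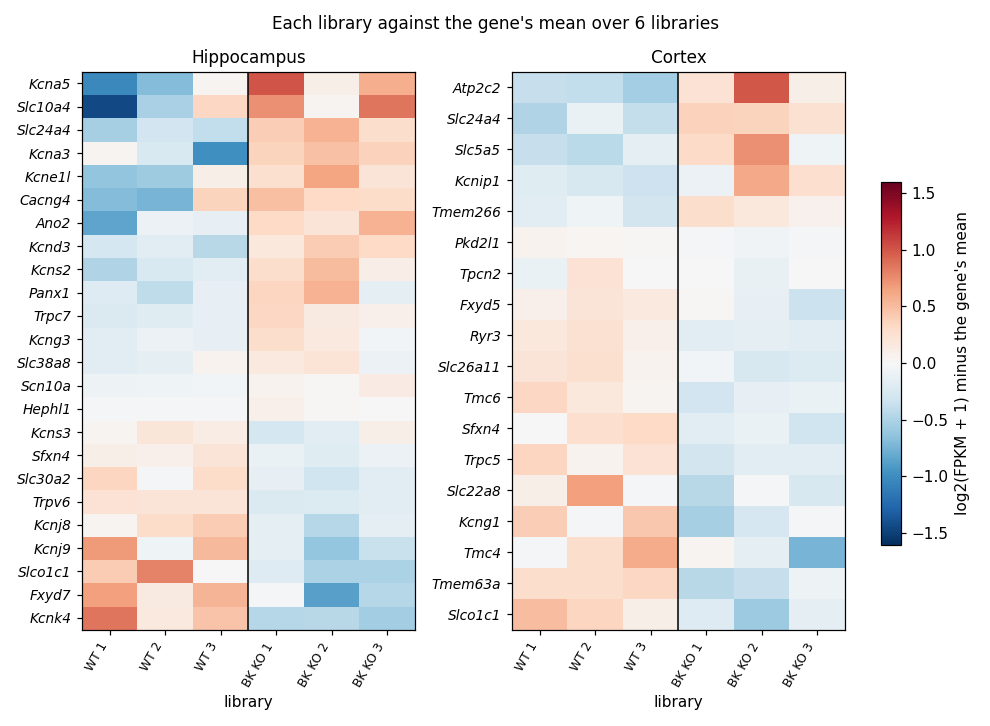
Colour gives log2(FPKM + 1) in each library minus the gene's mean over the 6 libraries of the tissue, for 24 of the 26 hippocampal members and the 18 cortical members, ordered by their difference between BK KO and WT. WT replicate 3 of hippocampus is on the BK KO side for Cacng4, Slc10a4 and Kcne1l, and BK KO replicate 2 of cortex is the highest library for Atp2c2, Slc5a5 and Kcnip1.

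In cortex, 5 of the 18 members had higher values in BK KO and 13 had lower values, beside 164 and 395 of the 561 listed genes. Past the threshold were 5 members, beside 30.8% of all genes listed for cortex. Of these, 3 were higher in BK KO (Atp2c2, Slc24a4 and Slc5a5), beside 10.9% of the list, and 2 were lower (Slco1c1 and Tmem63a), beside 20%. The WT and BK KO libraries did not overlap for 15 of the 18, beside 80.6% of the list. As in hippocampus, the list came from this contrast and nothing is read from the counts. Without WT replicate 1, 3 members were past the threshold, 1 of them higher, without BK KO replicate 2 only 2 were, both higher, and with a pseudocount of 0.1 FPKM 11 were. The median difference was -0.34 over the members and -0.33 over the list, and 6 members averaged under 1 FPKM.

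**Figure D3:**
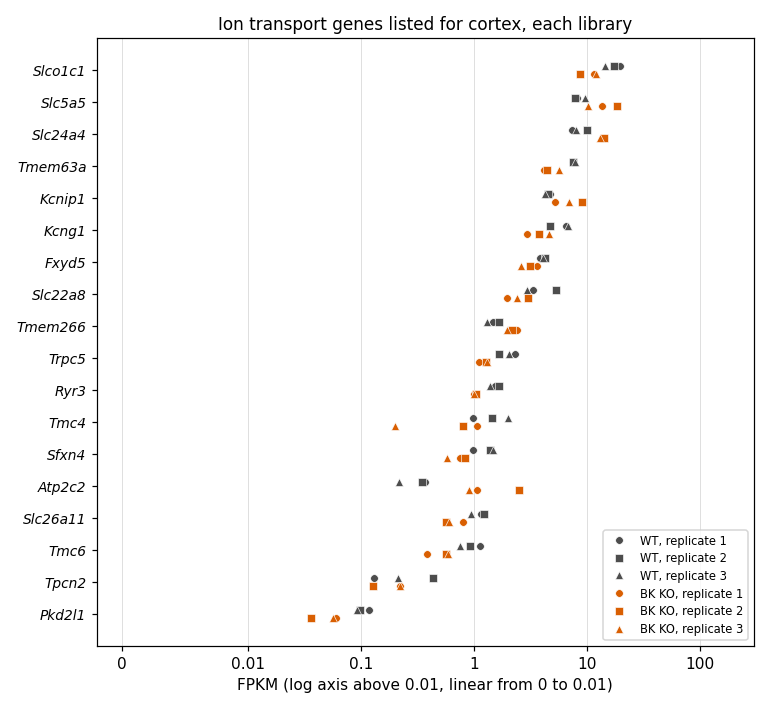
FPKM of the 18 members listed for cortex in each of the 6 libraries (horizontal axis logarithmic above 0.01 FPKM), ordered by mean level, with WT in grey and BK KO in orange and the replicate number as the symbol. Slco1c1, Slc5a5 and Slc24a4 had the highest means, and the libraries of Slc22a8, Tmc4 and Tpcn2 overlapped between genotypes.

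Potassium channel genes were few among the cortical members. Kcnip1 encodes a calcium-binding protein that assembles with Shal-type channels such as those of Kcnd3. It was at 4.78, 4.53 and 4.28 FPKM in WT against 5.23, 9.10 and 6.99 FPKM in BK KO. All BK KO libraries were above all WT libraries, by little in replicate 1, and the difference of 0.52 ± 0.18 was past the threshold only without that library, at 0.70, or with a pseudocount of 0.1 FPKM, at 0.60. Gad2, a marker of inhibitory neurons and the only 1 of 11 such markers listed for cortex, was at 14.3, 15.6 and 12.9 FPKM in WT against 19.1, 33.1 and 20.6 FPKM in BK KO, with BK KO replicate 2 the highest library for both genes. Gad2 was likewise the only such marker listed for hippocampus, at 12.8, 14.7 and 16.4 FPKM in WT against 34.1, 37.5 and 29.8 FPKM in BK KO, higher in every BK KO library of both tissues. Its part in the values of Kcnip1 and of the hippocampal channel genes was not tested. Kcng1, a silent subunit, had lower values in BK KO, with 4.70 to 6.79 FPKM in WT and 2.99 to 4.68 FPKM in BK KO, groups that nearly met. Its difference of -0.54 ± 0.18 was past the threshold without WT replicate 2 (-0.68) or BK KO replicate 3 (-0.67), and with a pseudocount of 0.5 FPKM, at -0.60.

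Tmem63a encodes a mechanosensitive cation channel that oligodendrocytes are known to express. It was at 7.58, 7.61 and 7.87 FPKM in WT against 4.22, 4.50 and 5.69 FPKM in BK KO. The WT libraries were nearly equal, all BK KO libraries were below them, and the difference was -0.59 ± 0.11. It lay so near the threshold that leaving out WT replicate 3 (-0.58), BK KO replicate 1 (-0.52) or BK KO replicate 2 (-0.56) took it short. Of 11 oligodendrocyte markers, 3 were listed for cortex (Opalin, Gjb1 and Aspa). Beside 395 of 561 listed genes that were lower and 80.6% without overlap, all 3 were lower in BK KO without overlap. Their summed level was 25.8, 32.7 and 23.0 FPKM in WT and 12.7, 18.4 and 13.6 FPKM in BK KO, with Opalin the most abundant at a mean of 13.3 FPKM and no marker at 0. Their part in the lower Tmem63a was not tested.

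The other cation channels among the cortical members had lower values in BK KO. Trpc5, a receptor-operated channel of neurons, ranged from 1.69 to 2.30 FPKM in WT and from 1.12 to 1.31 FPKM in BK KO. Ryr3, a calcium release channel of the endoplasmic reticulum, ranged from 1.40 to 1.67 FPKM and from 1.01 to 1.05 FPKM. Neither overlapped between genotypes, and neither was past the threshold, with differences of -0.42 ± 0.10 and -0.33 ± 0.08. With a pseudocount of 0.1 FPKM Trpc5 was past it, at -0.647, and Ryr3 was not, at -0.545. Tmc6 and Pkd2l1 were lower without overlap and averaged under 1 FPKM, and Tmc4 overlapped. The difference of Tmc4 was -0.57 ± 0.25, past the threshold only without WT replicate 1 (-0.72) or BK KO replicate 1 (-0.73) and lowest in size, at -0.34, without BK KO replicate 3. The lysosomal channel gene Tpcn2 also overlapped and had a difference of -0.07 ± 0.11, or 0.0232 without WT replicate 2. Skeletal muscle genes were lower in the same BK KO libraries. Of 18 muscle markers 11 were listed for cortex, all lower, beside 395 of the 561 listed genes. The summed level of the 11 was 89.8, 33.2 and 27.5 FPKM in WT and 9.78, 8.38 and 7.51 FPKM in BK KO. Acta1 was the most abundant at a mean of 11.5 FPKM, and Ckm was at 0 in 1 BK KO library. The part of muscle RNA in the channel values was not tested.

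Atp2c2 encodes a calcium and manganese pump of the secretory pathway. It was at 0.374, 0.347 and 0.220 FPKM in WT against 1.08, 2.53 and 0.901 FPKM in BK KO, a ratio of means of 4.80. Every BK KO library was above every WT library, with replicate 2 far above the other BK KO libraries. The difference was 0.88 ± 0.24, was 0.60 without that library, and was past the threshold in all 6 fits that left out a library. Fxyd5, which like Fxyd7 encodes a regulator of the sodium-potassium pump and is its direct neighbour on the chromosome, was at 3.84, 4.27 and 4.07 FPKM in WT against 3.61, 3.18 and 2.60 FPKM in BK KO, a difference of -0.30 ± 0.11.

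Slc5a5 encodes the sodium iodide symporter. It was at 8.25, 7.83 and 9.72 FPKM in WT against 13.7, 18.7 and 10.3 FPKM in BK KO. The lowest BK KO library, replicate 3, lay just above the highest WT library, also replicate 3. The difference of 0.64 ± 0.21 was not past the threshold without WT replicate 1 (0.61), WT replicate 2 (0.58), BK KO replicate 1 (0.64) or BK KO replicate 2 (0.43). Slc5a5 was the only 1 of 18 choroid plexus markers listed for cortex, and the others have no value here for that tissue.

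Slc22a8 encodes an organic anion transporter found in the meninges and at the blood-brain barrier. It was at 3.32, 5.38 and 2.99 FPKM in WT against 1.97, 3.02 and 2.41 FPKM in BK KO, with BK KO replicate 2 just above the lowest WT library. The difference of -0.48 ± 0.21 was past the threshold only without WT replicate 3 (-0.61), and it was -0.27 without WT replicate 2, the highest WT library. Of 15 meningeal markers 3 were listed for cortex (Slc22a6, Slc22a8 itself and Ranbp3l). Beside 395 of 561 listed genes that were lower, all 3 were lower in BK KO, and none was at 0. Their summed level was 7.12, 10.6 and 6.55 FPKM in WT and 3.63, 6.04 and 5.67 FPKM in BK KO, with Slc22a8 the largest part of it. The others were at 2.13, 2.94 and 2.13 FPKM in WT against 0.774, 1.71 and 1.98 FPKM in BK KO for Slc22a6 and at 1.67, 2.30 and 1.44 FPKM against 0.881, 1.31 and 1.28 FPKM for Ranbp3l, both without overlap, and their part in the lower Slc22a8 was not tested. Slc26a11, a chloride and sulfate transporter, ranged from 0.952 to 1.24 FPKM in WT and from 0.566 to 0.807 FPKM in BK KO. The voltage sensor protein gene Tmem266 was higher in BK KO, with 1.96 to 2.41 FPKM against 1.30 to 1.68 FPKM.

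**Figure D4:**
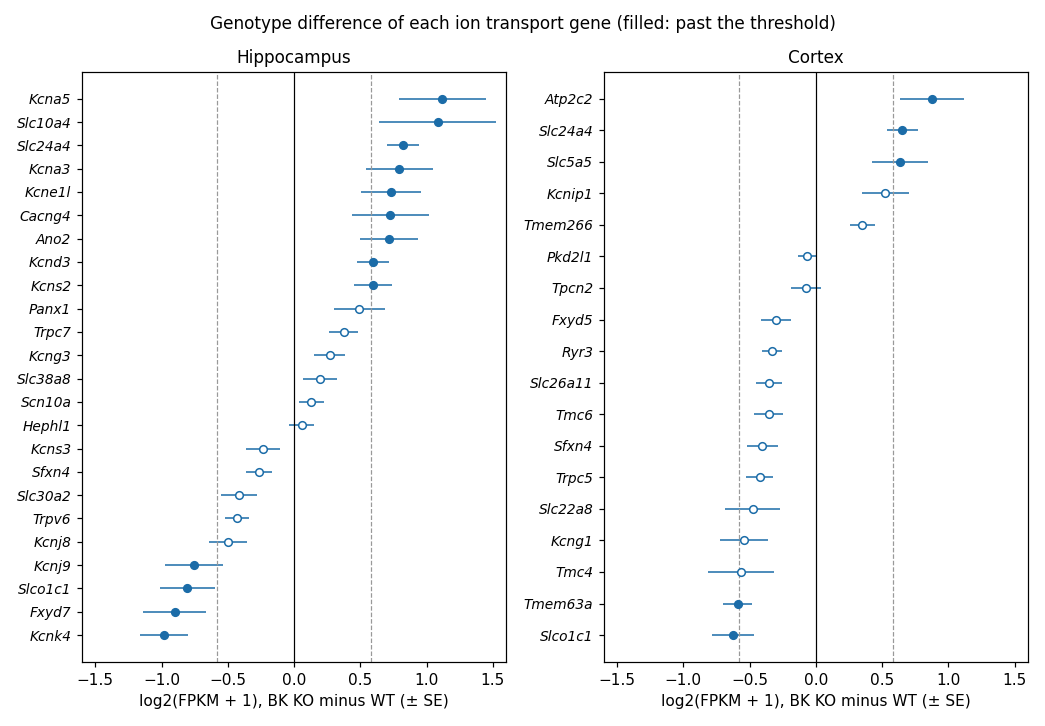
Difference between BK KO and WT in log2(FPKM + 1) for 24 of the 26 members in hippocampus and the 18 in cortex, with its standard error as the bar. Filled points are past the threshold, open points are not, and the dashed lines mark a difference of 0.58 in either direction.

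Members listed for both tissues were Slc24a4, Slco1c1 and Sfxn4, and each had the same direction in both. Slc24a4 (Gene ID 238384) encodes a potassium-dependent sodium-calcium exchanger that extrudes calcium from neurons. In hippocampus it was at 7.18, 8.55 and 8.07 FPKM in WT against 14.6, 16.5 and 13.5 FPKM in BK KO, and in cortex at 7.49, 9.99 and 8.07 FPKM and 14.4, 14.2 and 13.0 FPKM. The groups were far apart in both tissues, and the differences were 0.82 ± 0.12 and 0.65 ± 0.12. In cortex the difference was 0.57 without WT replicate 1, just short of the threshold.

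Slco1c1 (Gene ID 58807) encodes a thyroxine transporter of brain capillaries and astrocytes. It was at 18.8, 24.8 and 14.0 FPKM in WT hippocampus against 11.9, 9.53 and 9.53 FPKM in BK KO hippocampus. In cortex it was at 19.6, 17.6 and 14.6 FPKM in WT against 11.7, 8.75 and 12.2 FPKM in BK KO. All BK KO libraries were below all WT libraries of their tissue, with WT replicate 3 the lowest of the WT libraries in each, and the differences were -0.80 ± 0.21 and -0.62 ± 0.16, the second not past the threshold without WT replicate 1 (-0.53) or BK KO replicate 2 (-0.49). Of 12 endothelial markers only Tek was listed, in both tissues, at 2.72, 2.87 and 2.00 FPKM in WT against 1.27, 1.80 and 1.18 FPKM in BK KO hippocampus and at 2.74, 2.66 and 2.00 FPKM and 1.44, 1.43 and 1.64 FPKM in cortex. Of 12 astrocyte markers 0 were listed for hippocampus and only Gfap for cortex, at 42.5, 50.4 and 23.1 FPKM in WT against 92.2, 82.6 and 50.9 FPKM in BK KO, higher in every BK KO library and so opposite to Slco1c1. The part of either marker in the lower Slco1c1 was not tested.

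Sfxn4 (Gene ID 94281) encodes a mitochondrial inner membrane protein needed for assembly of respiratory complex I. It was at 1.25, 1.22 and 1.43 FPKM in WT against 0.958, 0.837 and 0.962 FPKM in BK KO hippocampus, and at 0.987, 1.38 and 1.47 FPKM in WT against 0.749, 0.829 and 0.578 FPKM in BK KO cortex. The groups did not overlap in either tissue, and the differences of -0.26 ± 0.10 and -0.40 ± 0.12 were not past the threshold at this low level, except in cortex with a pseudocount of 0.1 FPKM, where the difference was -0.75.

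The difference between BK KO and WT was compared between the tissues over the 196 genes listed for both. None of the 3 members differed between tissues by limma at a Benjamini-Hochberg adjusted p under 0.05, nor did any other of the 196 genes (0%), and 0 were under an unadjusted p of 0.05. The hippocampal minus the cortical difference was 0.17 ± 0.17 for Slc24a4, -0.18 ± 0.28 for Slco1c1 and 0.14 ± 0.15 for Sfxn4, each with an adjusted p of 0.998. These small values moved with single libraries left out and, for Sfxn4, with the pseudocount. Slco1c1 was at -0.00304 without WT replicate 2 and at -0.05 without BK KO replicate 3, and Slc24a4 was at 0.12 without WT replicate 2. Sfxn4 was at 0.07 without BK KO replicate 3, 0.08 without WT replicate 2, 0.22 without BK KO replicate 2 and 0.22 without WT replicate 1. With a pseudocount of 0.1 FPKM and all libraries, Sfxn4 was at 0.29. These genes had been listed because they differed between genotypes in both tissues, which limits how far the tissues could differ, and the values of each tissue came from a separate table. For the 38 members listed in 1 tissue only, a difference between tissues was not tested.

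**Figure D5:**
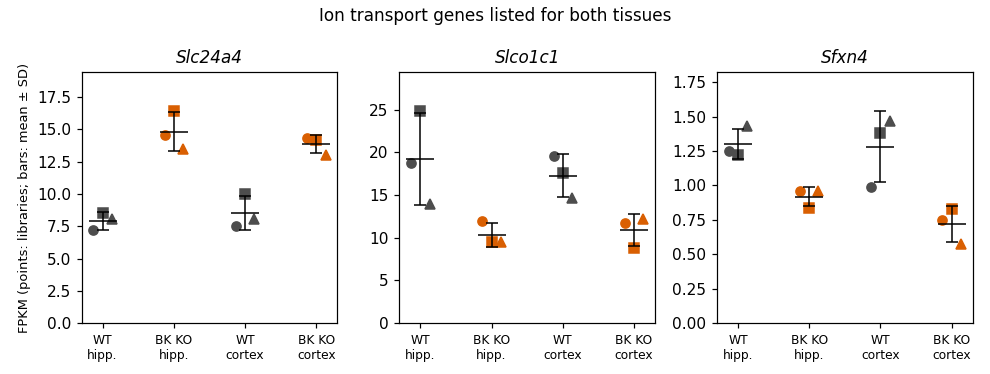
FPKM of the 3 members listed for both tissues, with each library as a point (symbol by replicate number), and the mean ± SD of each group of 3 as bars. Slc24a4 was higher and Slco1c1 and Sfxn4 were lower in every BK KO library than in any WT library of the same tissue.

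The promoters of these 3 genes are shown because they were the members listed for both tissues, Slc24a4 with higher values in BK KO and Slco1c1 and Sfxn4 with lower ones. Each run holds the 250 bases before and the 50 bases after the gene's start, 5′ to 3′ on the gene's strand, from RefSeq on build GRCm38.p6. Capitals mark matches on either strand to the TATA box TATAAA, the CCAAT box CCAAT, the GC box GGGCGG, the E-box CACGTG, the AP-1 motif TGACTCA and the CRE core TGACGT, no match overlapped another, and the table used held a promoter for 30 of the 41 members.
Slc24a4, chr12:102128477-102128776, plus strand: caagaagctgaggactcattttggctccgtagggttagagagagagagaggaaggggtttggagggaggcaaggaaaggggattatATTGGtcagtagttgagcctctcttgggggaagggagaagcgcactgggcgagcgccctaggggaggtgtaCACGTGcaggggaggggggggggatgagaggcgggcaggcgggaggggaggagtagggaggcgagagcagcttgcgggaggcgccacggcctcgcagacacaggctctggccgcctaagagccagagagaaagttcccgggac
Slco1c1, chr6:141524104-141524403, plus strand: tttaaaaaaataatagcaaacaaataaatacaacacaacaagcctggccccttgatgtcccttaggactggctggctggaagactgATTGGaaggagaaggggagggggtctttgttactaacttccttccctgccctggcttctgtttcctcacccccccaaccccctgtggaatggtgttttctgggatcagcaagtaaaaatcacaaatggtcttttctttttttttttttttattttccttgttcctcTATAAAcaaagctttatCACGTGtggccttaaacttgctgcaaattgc
Sfxn4, chr19:60861379-60861678, minus strand: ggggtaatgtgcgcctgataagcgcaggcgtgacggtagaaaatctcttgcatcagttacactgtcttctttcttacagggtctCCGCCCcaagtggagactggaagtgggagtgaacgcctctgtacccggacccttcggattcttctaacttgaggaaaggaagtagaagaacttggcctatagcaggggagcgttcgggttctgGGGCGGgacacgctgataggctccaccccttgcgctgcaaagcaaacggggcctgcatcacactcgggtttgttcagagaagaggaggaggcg
Slc24a4 and Slco1c1 each held CACGTG, which is in 7.15% of 32851 promoters of this length, and CCAAT, which is in 37.4%. Slco1c1 also held TATAAA (13.6% of promoters), and Sfxn4 held GGGCGG (35.7%). In Slco1c1 TATAAA begins at base 3 and CACGTG at base 20 after the gene's start, so neither lies before it. TGACTCA (5.20%) and TGACGT (7.51%) were in none of the 3. Base composition differed, with 62.7% G and C in Slc24a4, 55.7% in Sfxn4 and 42.0% in Slco1c1. A match gives the letters only and says nothing of binding.

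Several members lie close together on their chromosomes in RefSeq. Fxyd5 and Fxyd7, and Hephl1 and Panx1, each have 0 protein-coding genes between them, and Kcna5 and Ano2 have 1. Hephl1 and Panx1, and Kcna5 and Ano2, were listed for hippocampus and had higher values in BK KO within each pair, whereas Fxyd7 was listed for hippocampus and Fxyd5 for cortex, both lower. Beyond the term that chose them, 21 of the 26 hippocampal members held the term plasma membrane, beside 30.1% of the list, and 13 held voltage-gated ion channel activity, beside 2.61%. Of the 18 cortical members 12 held plasma membrane, beside 25.1%. These terms are shared in part by definition with ion transport.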

How the data were processed

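Hippocampus and cortex of WT and BK KO mice were sequenced by the authors as poly-A libraries, 3 per group. The deposited values per library are taken as FPKM, made by the authors per transcript length and library total, in a separate table for each tissue. The unit was inferred: across genes, the ratio of FPKM to the authors' base mean, a deposited signal of counts over size factors averaged over WT, fell with transcript length (Spearman's rho -0.644 over 512 hippocampal and -0.691 over 443 cortical genes, which are not independent replicates). At best 31.6% of low values stood in whole-number ratios between libraries (tolerance 0.005 in natural log), so reads and depth could not be recovered and no counting error is given. Aligner and read counter are not given in the sources used here. The submitters' processing notes name mm9 and DESeq 1.10.1, and DESeq2 is named as well. The authors kept genes by an unadjusted p and a log2 fold change. Their comparison columns hold fold changes, log2 fold changes, p-values, adjusted p-values and directions, and were not used. Columns without a sample to match numbered 0.

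For each tissue, limma 3.58.1 (R 4.3.3; lmFit, then eBayes without trend) was run on log2(FPKM + 1) over all listed genes, with no filter. Genotype by tissue was a contrast of the 4 group means over the 196 genes in both lists, with Benjamini-Hochberg adjustment. The fits were tested on simulated data. Values in every library are given for members in both lists, with a mean of at least 5 FPKM or past the threshold, and other members are given by range or in counts, except that Kcnj8, Fxyd5 and Slc22a8 are given in full and were chosen after their values were seen. In hippocampus 2 members enter the counts but are not reported here, and 1 marker was left out of its list. Members and gene lists were chosen with earlier results of these data known. Since builds differ or are unclear, gene names, neighbours and promoters came from RefSeq, where 41 members were found by Gene ID. Alternatives were pseudocounts of 0.1 and 0.5 FPKM, a minimum mean of 1 FPKM, eBayes with trend, a replicate block, leaving out each library, a log2 fold change beyond 1, and any term with the words ion transport. Software was Python 3.11.15 with numpy 2.4.6, pandas 2.3.3 and matplotlib 3.10.9.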

Additional observations from a re-analysis of the deposited data

How the results depend on the processing

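Members past the threshold numbered 15 of 26 in hippocampus and 5 of 18 in cortex. With a log2 fold change beyond 1 they were 2 and 0, since that limit is stricter. A pseudocount of 0.1 FPKM gave 21 and 11, and 0.5 FPKM gave 17 and 6; a smaller pseudocount enlarges the differences of low genes. A minimum mean of 1 FPKM, which left 18 and 12 members, gave 14 and 4, eBayes with trend 15 and 5, and any term with the words ion transport 20 of 40 and 7 of 22. Leaving out each library in turn gave 9 to 13 in hippocampus and 2 to 6 in cortex. By limma, genotype by tissue gave 0 members at an adjusted p under 0.05 with a pseudocount of 0.1 FPKM, a minimum mean of 1 FPKM, a replicate block or any library left out (other alternatives were not run for it), and from 0 to 2 of the genes tested were under an unadjusted p of 0.05.

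A replicate block gave 15 and 5 members. Same-numbered WT and BK KO libraries did not deviate together over the listed genes (correlations from -0.239 to 0.125), and nothing in these values marks them as pairs. Between the tissues, same-numbered libraries correlated at 0.511, 0.655 and 0.551 in BK KO over the 196 shared genes. In WT they correlated at -0.000417, 0.494 and 0.0242. Differently numbered libraries correlated from -0.451 to -0.175 in BK KO and from -0.505 to 0.422 in WT. Deviations from a group's own mean cancel, so these values depend on the same-numbered ones and add no separate evidence. By the same-numbered values, the numbers may mark the same mouse in BK KO, but were not taken to do so in WT. The main genotype by tissue fit used no pairing, and with a replicate block it also gave 0 members.

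Over the members' single values under the pseudocounts, the minimum mean, the trend, the block and each library left out, 245 of 278 values in hippocampus and 168 of 192 in cortex kept their direction and side of the threshold. No longer past it were 23 and 10, and newly past it 10 and 13. With a library left out, 131 of 156 values in hippocampus and 91 of 108 in cortex kept both. The minimum mean, the trend and the block leave a gene's difference as it is, so only its p could move the call there. Of the members past the threshold, 6 of 15 in hippocampus and 1 of 5 in cortex stayed past it whichever library was left out. Only Tpcn2 in cortex changed direction, with 0.0232 without WT replicate 2 in a range from -0.148 to that value over the libraries left out, and the cause was not tested. With 3 libraries a group and depth unknown, differences of genes under 1 FPKM are the least certain.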
